A study of Mus musculus with 4 samples.

Results

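In the epiphyses of mice with floxed Sox9 alleles and a Cre expressed from Acan, some of the cells with Col2a1 RNA carried transcripts of Myoc, which encodes the secreted olfactomedin-domain glycoprotein myocilin, and of Pi15, which encodes a secreted protein of the cysteine-rich CAP family. The Myoc/Pi15 barcodes described here were picked by a rule on their own counts. A cell barcode of a Sox9fl:fl AcanCreERT2/+ library was kept if it had at least 500 detected genes and at most 15% mitochondrial UMIs (unique molecular identifiers, 1 per captured RNA molecule). It then needed no UMI of Ptprc, the pan-leukocyte gene, at least 50 UMIs of Col2a1 per 10,000 UMIs of the barcode, under 10 of Prg4, under 25 of Bglap, Ifitm5 and Dmp1 summed, under 15 of Mmp13 and Cryba2 summed, and at least 4 of Myoc and Pi15 summed. The rule found 566 barcodes at postnatal day 13 and 611 at day 19, that is 1177 of 17371 kept mutant barcodes (6.78%), of 30952 kept barcodes in all 4 libraries and of 39898 deposited ones. The levels of these 10 rule genes, and of the 6 genes used to describe the state (Myoc, Pi15, Cxcl1, Ogn, Penk and Col14a1), chose or named the barcodes. They are therefore given as a description with no test.

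The study profiled cells from digested tibial and femur epiphyses by droplet 3′ RNA sequencing, with 1 library for each genotype and age. The mutant libraries came from mice with 2 floxed Sox9 alleles and 1 AcanCreERT2 allele, a tamoxifen-inducible Cre expressed from the Acan gene, at postnatal days 13 and 19. The other libraries came from wild-type (WT) mice, with no floxed allele and no Cre named in their genotype, at the same ages. Cre driven by Acan acts on cells that have made aggrecan, and cells without it keep Sox9. Which exons were floxed, when tamoxifen was given, on which strain and in how many mice per library is not given in the labels. The text on the series' design mentions a different age and 1 more genotype, so groups were taken from the labels of the samples. With 1 library per genotype and age, differences between mice cannot be told apart from differences between ages or genotypes.

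SOX9 is the transcription factor that switches on the genes of cartilage matrix, among them those for type II, IX and XI collagen, aggrecan and the matrilins, together with SOX5 and SOX6. In the growth plate, chondrocytes pass through resting, proliferating, prehypertrophic and hypertrophic stages, of which Ihh marks the prehypertrophic stage and Col10a1 the hypertrophic one. Myocilin is best known from the trabecular meshwork of the eye, where mutant forms cause glaucoma. Ogn encodes osteoglycin, a small leucine-rich proteoglycan, Penk encodes the opioid precursor proenkephalin, Col14a1 encodes a collagen that binds to the surface of fibrils in tendon and skin, and Cxcl1 encodes a chemokine that attracts neutrophils.

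The 250 bases upstream of the annotated start of Myoc and Cxcl1 are shown because the first gene defines the barcodes and the second is the chemokine that marks them. They come from RefSeq (GRCm38.p6), whose promoter table held 3 of the 6 marker genes (Myoc, Cxcl1 and Ogn). Pi15, Penk and Col14a1 are named only. The Myoc window is chr1:162638900-162639149 on the plus strand, and the Cxcl1 window is chr5:90890995-90891244 on the plus strand. Capitals mark the matches found on either strand to 8 short motifs, none of which overlap in these windows.
Myoc: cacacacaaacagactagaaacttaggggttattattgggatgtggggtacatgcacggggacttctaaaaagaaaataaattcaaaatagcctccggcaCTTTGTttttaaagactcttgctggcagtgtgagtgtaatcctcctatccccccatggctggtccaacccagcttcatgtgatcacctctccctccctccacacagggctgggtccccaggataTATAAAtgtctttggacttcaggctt
Cxcl1: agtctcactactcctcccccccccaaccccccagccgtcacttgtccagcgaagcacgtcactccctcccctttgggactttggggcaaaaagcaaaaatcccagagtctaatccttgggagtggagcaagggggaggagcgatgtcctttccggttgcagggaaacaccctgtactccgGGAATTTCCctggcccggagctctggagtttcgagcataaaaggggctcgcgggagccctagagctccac
The motifs searched were the TATA box TATAAA, the core of SOX sites ACAATG, its variant ACAAAG, the AP-1 site TGANTCA, TGACGTCA (CRE), GGNATTTCC (part of the NF-kappaB palindrome), GGGCGG (GC box) and CACCTG (an E-box). In the Myoc window, TATAAA began 26 bases before the start, a motif found in 12.3% of 32536 upstream windows of the same length. CTTTGT, the reverse complement of ACAAAG, began 150 bases before it, and 16.5% of windows hold that motif. In the Cxcl1 window, GGAATTTCC began 70 bases before the start, and 1.06% of windows hold GGNATTTCC. The other motifs are in 10.5% (ACAATG), 6.73% (TGANTCA), 1.56% (TGACGTCA), 33.0% (GGGCGG) and 17.3% (CACCTG) of windows. A match describes the letters of the window only.

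Before the results, 4 features of the libraries bear on all values. Each library held between 70507107 and 76080803 UMIs in 8053 to 12714 deposited barcodes, and the Myoc/Pi15 barcodes had a median of 10818.5 UMIs at day 13 and 9526 at day 19, against 11543.5 and 16830 in WT barcodes with Col2a1 at 100 or more per 10,000 (4696 and 1144 barcodes, the comparison set). Pairs of libraries shared between 19 and 44 barcode sequences, and 14 Myoc/Pi15 barcodes had a sequence that another library also held. No doublets were removed. The doublet caller Scrublet marked 8 and 19 of the Myoc/Pi15 barcodes at days 13 and 19 (144 and 370 barcodes in the whole mutant libraries), but only 1 barcode in each WT library, where its threshold did not work. Cartilage RNA was also found in barcodes of other cells: of barcodes with at least 200 UMIs of S100a8 and S100a9 per 10,000, a gate for neutrophils, 66 of 526 and 99 of 1635 in the mutant libraries at days 13 and 19 also reached 50 of Col2a1, against 174 of 286 and 23 of 570 in the WT libraries. Of the same barcodes, 21 and 54 in the mutant libraries reached the threshold of 4 for Myoc and Pi15 (3.99% and 3.30%). In the WT libraries 0 and 1 did. Free RNA and doublets cannot be told apart in these counts. The tags read 3′ ends and the labels do not name the floxed exons, so whether Sox9 counts check the deletion cannot be told.

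The Myoc/Pi15 barcodes were common among mutant chondrocytes that passed the rest of the gate and rare among WT ones. They were 20.3% of 2795 gated mutant barcodes at day 13 (95% exact Clopper-Pearson interval 18.8 to 21.8) and 24.7% of 2470 at day 19 (23.0 to 26.5). Among WT barcodes under the same gate, 15 of 4402 (0.341%, 0.191 to 0.561) and 8 of 993 (0.806%, 0.348 to 1.58) met the rule. The intervals cover counting error only, and since Myoc and Pi15 define the barcodes the shares are a description with no test.

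**Figure D1:**
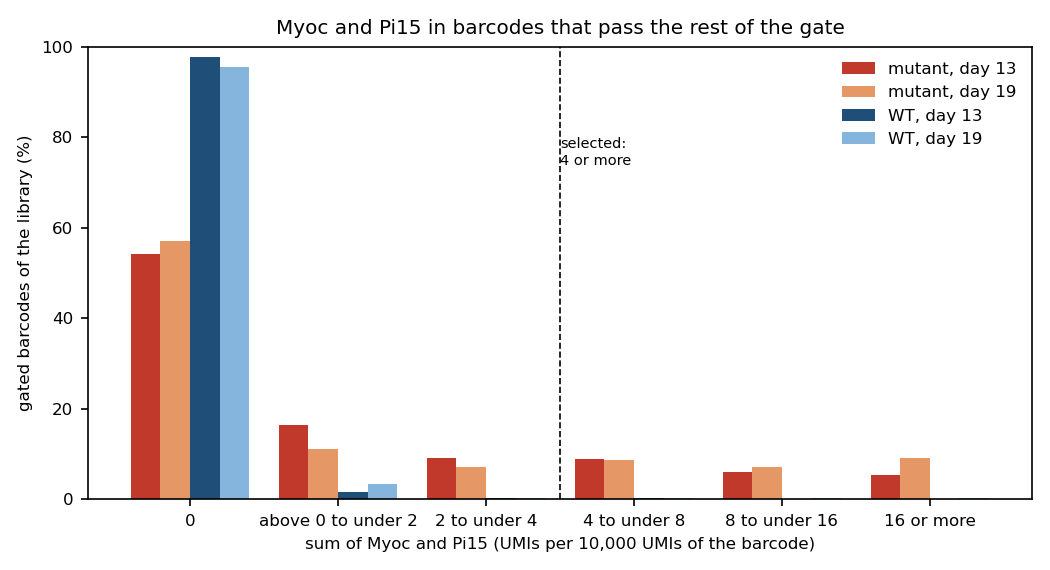
Share of gated barcodes (y axis, percent of the library's gated barcodes) by the sum of Myoc and Pi15 (x axis, UMIs per 10,000 UMIs of the barcode), with 1 bar for each library, mutant then WT in each bin. The dashed line is the threshold of 4. In the mutant libraries 54.3% and 57.1% of gated barcodes had no UMI of either gene, against 97.8% and 95.5% in the WT libraries, and mutant barcodes fill every bin above 0.

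The state had no sharp lower edge. The median sum of Myoc and Pi15 over the barcodes was 9.18 per 10,000 at day 13 and 11.5 at day 19, and the highest barcodes reached 164 and 109.9. Between 4 and 5 per 10,000, just inside the threshold, were 78 and 71 barcodes, and between 3 and 4, just outside, were 99 and 64. Of the 4 marker genes not used in the rule, Ogn measured 4.47 and 3.70 per 10,000 just inside at days 13 and 19, and 3.34 and 2.80 just outside, and Col14a1 2.97 and 1.61 inside, and 2.35 and 1.53 outside. The 95% counting intervals of Col14a1 overlapped at day 13 (2.63 to 3.34 inside, 2.08 to 2.64 outside) and at day 19 (1.33 to 1.94, 1.25 to 1.85). Penk was lower inside at day 13, at 2.21 (1.91 to 2.53) against 3.15 (2.83 to 3.49) outside. At day 19 Penk was close on the 2 sides, at 4.35 (3.87 to 4.87) against 4.46 (3.97 to 4.99). Cxcl1 had no common order, at 0.942 and 1.97 inside against 1.62 and 0.868 outside. Only 30 and 17 of the barcodes met the threshold on 1 UMI.

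Of the barcodes selected on the sum of the pair, some held both genes and some held 1. Both genes had a UMI in 340 barcodes at day 13 and 362 at day 19, Myoc alone in 173 and 194, and Pi15 alone in 53 and 55. The Pi15-alone barcodes had lower median depth (8453 and 7024 UMIs) than those with both genes (11673.5 and 9848.5). Penk was lowest in the Pi15-alone barcodes, at 2.92 and 1.69 per 10,000 at days 13 and 19, against 3.55 and 7.48 in the Myoc-alone barcodes and 4.85 and 8.68 in those with both. Cxcl1 did not follow that order: it measured 2.34 and 1.43 in the Pi15-alone barcodes, 0.726 and 1.08 in the Myoc-alone ones, and 1.202 and 2.10 in those with both.

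Myoc lies on chromosome 1 (mm10, 162639155 to 162649693) and Pi15 on the same chromosome (17601901 to 17630939). Summed over the barcodes, Myoc measured 10.3 UMIs per 10,000 at day 13 and 14.5 at day 19, against 0.0518 and 0.114 in WT barcodes with Col2a1 at 100 or more. Pi15 measured 3.24 and 3.00 against 0.0114 and 0.0338 in WT. Both genes were near 0 in both WT sums, where the choice of barcodes set no limit on them, and the high values in the mutant sums follow from the rule. The remaining gated mutant barcodes, with Myoc and Pi15 under 4, held 0.327 and 0.277 of Myoc and 0.238 and 0.165 of Pi15.

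The 4 marker genes that the rule did not use were also higher. Cxcl1 measured 1.14 and 1.73 per 10,000 at days 13 and 19, against 0.0906 and 0.135 in WT, which is 12.6-fold and 12.9-fold higher. Ogn measured 5.13 and 5.34 against 0.552 and 0.594 in WT. Col14a1 measured 3.12 and 1.97 against 0.146 and 0.117 in WT. For each of these 3 genes, the lower mutant age lay above the higher WT age.
Penk, at 4.36 and 7.86 per 10,000 against 1.48 and 0.98 in WT, had the smallest ratio at day 13 (2.94-fold) and 8.01-fold at day 19. Of the Myoc/Pi15 barcodes, 74.0% and 75.9% had a UMI of at least 2 of these 4 genes, against 54.0% and 41.2% of the remaining gated mutant barcodes at median depths of 11148 and 9808 UMIs, and 26.6% and 28.9% of the WT barcodes.

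Shares of barcodes with a UMI were set against neutrophil-gated barcodes of the same libraries, which should lack these genes and had shallower medians of 2576.5 and 2761 UMIs. Cxcl1 had a UMI in 29.7% and 35.5% of Myoc/Pi15 barcodes at days 13 and 19, and in 1.52% and 2.54% of neutrophil-gated ones. With every barcode thinned to 2000 UMIs, which left out 31 and 19 Myoc/Pi15 barcodes as too shallow, the shares were 12.7% and 15.03%, against 0.336% and 1.46% in neutrophil-gated barcodes. At the same thinned depth, 8.32% and 9.27% of the remaining gated mutant barcodes and 1.29% and 1.79% of WT barcodes had a Cxcl1 UMI. The order of the sets was the same at both ages, with the Myoc/Pi15 barcodes above the remaining mutant barcodes and those above WT.

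**Figure D2:**
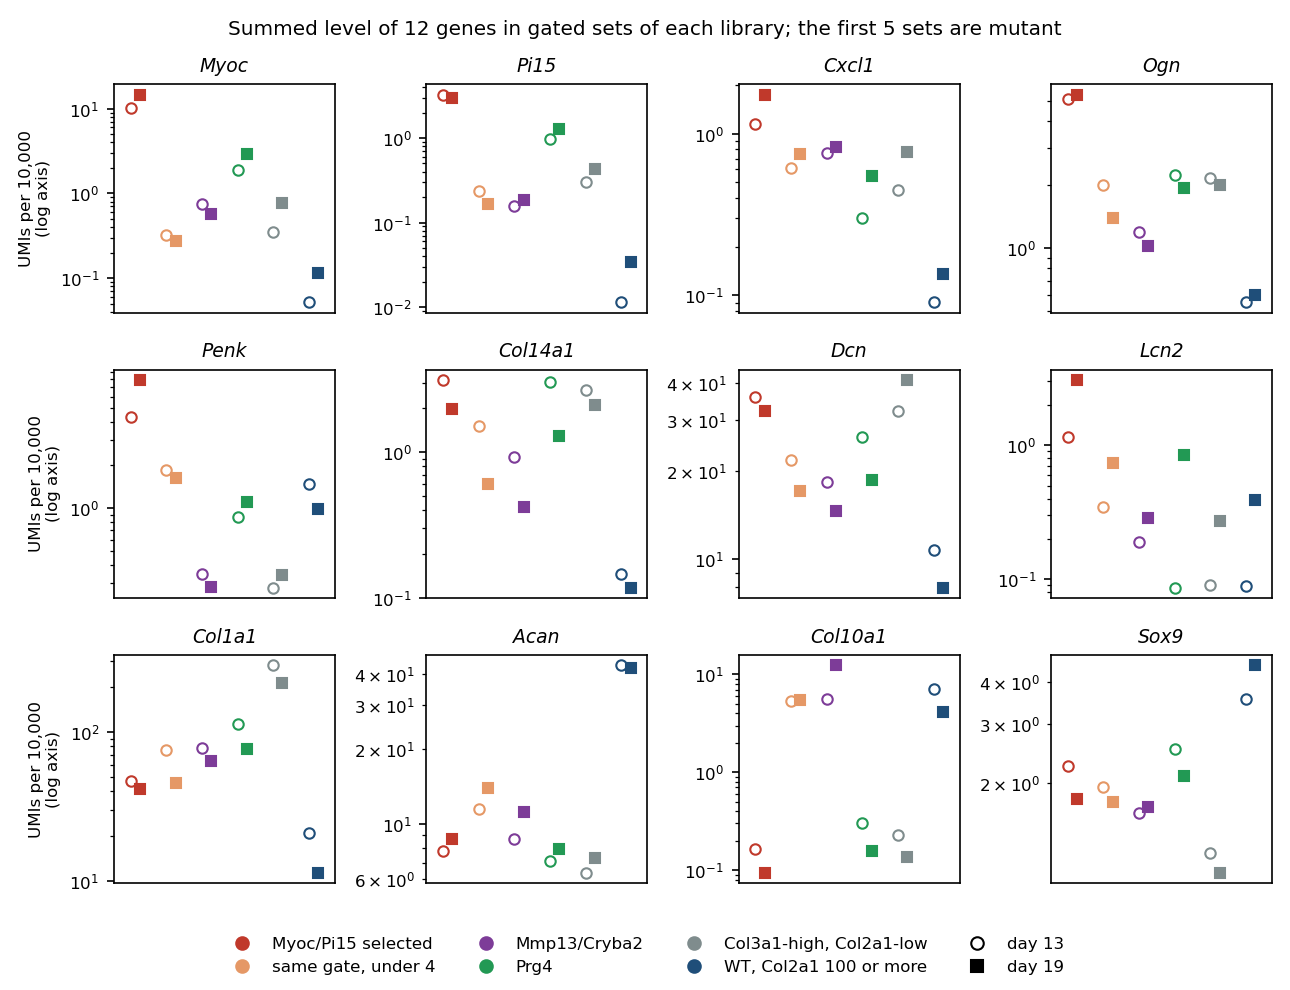
Summed level of 12 genes (y axis, UMIs per 10,000, log axis) in 5 gated sets of the mutant libraries and in WT barcodes with Col2a1 at 100 or more, with open circles for day 13 and filled squares for day 19. Each symbol is 1 library. Cxcl1 at 1.14 and 1.73 in the Myoc/Pi15 barcodes stands above WT at 0.0906 and 0.135, and Col10a1 at 0.165 and 0.0938 stands below the 5.36 and 5.45 of the remaining gated mutant barcodes and the 7.13 and 4.15 of WT.

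Markers of cartilage were present in the Myoc/Pi15 barcodes but at lower levels than in WT chondrocytes. All 11 chondrocyte markers were detected, and their sum was 147 and 168 UMIs per 10,000 at days 13 and 19, against 426 and 406 in WT. Of the 11, 10 were lower than in WT at both ages and 1, Comp, named here after its values were seen, a matrix glycoprotein gene of cartilage and tendon, was higher (62.2 and 87.5 against 40.1 and 43.5 in WT). The chondrocyte label thus rests on reduced but detected markers, together with the Col2a1 threshold of the rule.

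Of the markers of other cells, those of blood cells were not above WT in sum at both ages, while those of endothelial, mural, fibroblast, marrow stroma and osteoblast cells were. The rule left out barcodes with a Ptprc UMI, while 3.30% and 4.90% of the WT barcodes at days 13 and 19 had one. The sums therefore cannot show that the Myoc/Pi15 barcodes held less blood cell RNA. Neutrophil markers summed to 1.23 and 6.50 per 10,000 at days 13 and 19, against 3.42 and 14.5 in WT barcodes. All 6 of 6 macrophage markers were under 0.1 at both ages, with sums of 0.0475 and 0.123 against 0.150 and 0.0484 in WT. Erythroid markers summed to 9.81 and 37.6 against 27.9 and 105 in WT. Endothelial markers summed to 0.263 and 0.181 against 0.12 and 0.0634 in WT, with 5 of 5 higher at both ages, and mural cell markers to 0.244 and 0.181 against 0.0906 and 0.10.
Fibroblast and tendon markers summed to 1.05 and 0.708 against 0.358 and 0.169 in WT, of which Dpt, a dermatopontin gene of fibroblasts, made up 0.594 and 0.421 against 0.0152 and 0.0244, while Pi16, a marker of adventitial fibroblasts, was at 0.00317 and 0 against 0.00561 and 0.00704. Osteoblast markers, mainly Col1a1, summed to 69.8 and 57.3 against 26.0 and 24.8, with 3 of 6 higher at both ages and 2 lower. The lower ones were Bglap2, at 0.00634 and 0.00165 against 0.432 and 1.05, and Sp7, at 0.120 and 0.0724 against 0.159 and 0.114. The remaining gated mutant barcodes had osteoblast sums of 115 and 68.7. Over single Myoc/Pi15 barcodes the median of Col1a1 was 10.7 and 14.5, with highest values of 2555 and 483. Neutrophil-gated barcodes of the same libraries had Col1a1 medians of 16.3 and 4.89, and WT barcodes 1.68 and 0.258. The part of free RNA and of a few high barcodes in the Col1a1 sum was not tested. Marrow stroma markers summed to 0.434 and 0.382 against 0.144 and 0.178, of which Cxcl12 made up 0.307 and 0.197. Of these 4 markers 2 were higher at both ages and 2, among them Lepr, were lower. The part of these cells' RNA in the differences that follow was not tested.

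Against WT chondrocytes, 556 of 7748 measured genes (7.18%) were higher in the Myoc/Pi15 barcodes by 2-fold or more at both ages, and 311 (4.01%) were lower by as much. A gene counted as measured if it reached 0.1 UMIs per 10,000 in 1 of the 4 sums. The median log2 ratio over these genes was 0.11 at day 13 and -0.05 at day 19. With TMM scaling, which weights genes to offset a few very abundant ones, the medians were -0.15 and -0.12 and the calls 433 higher and 415 lower. The share of calls that were higher then moved to 51.1%, against 64.1% as counted. The 2 sets had unlike limits. The Myoc/Pi15 barcodes needed Col2a1 at 50 or more, and the WT barcodes 100 or more with no limit on the other rule genes. With only the 844 Myoc/Pi15 barcodes at Col2a1 of 100 or more, 526 genes were higher and 318 lower. With WT barcodes under the same gate, 623 were higher and 322 lower. Since the barcodes were selected, all these ratios over WT are a description.

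**Figure D3:**
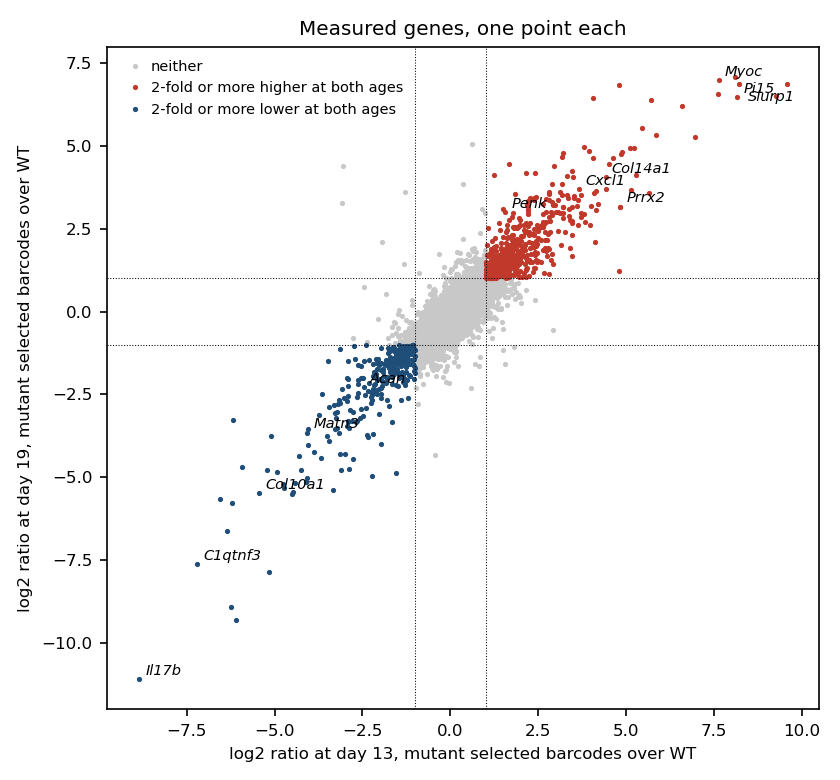
Log2 ratio of Myoc/Pi15 barcodes over WT barcodes with Col2a1 at 100 or more at day 13 (x axis) and day 19 (y axis) for the 7748 measured genes, 1 point each. Red points are the 556 genes higher by 2-fold or more at both ages, blue points the 311 lower ones, and dotted lines mark 2-fold. A sum with no UMI was set to 3 counts, which applies to Il17b at day 13.

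Most cartilage matrix genes were lower in the barcodes. Of the 17 measured genes of this list, 14 were at least 2-fold lower at both ages, 1 (Chad) was higher and 2 (Comp and Epyc) were neither, with median log2 ratios of -2.14 and -1.64. The Col2a1 threshold was 50 for these barcodes and 100 for WT, and the part of that gap in the counts was not tested. Acan, the gene of the large proteoglycan aggrecan, measured 7.79 and 8.74 per 10,000 against 43.2 and 42.2 in WT. Matn3, which encodes the matrix protein matrilin-3, measured 0.772 and 1.10 against 12.9 and 13.8, and Prelp, a gene of a leucine-rich matrix protein, 0.246 and 0.173 against 5.57 and 7.85. Both ages of each gene lay below both WT ages. Genes that sulfate and extend proteoglycan chains moved the same way, with 6 of 10 lower and 0 higher. Chst11, a chondroitin sulfotransferase gene, measured 0.375 and 0.448 against 3.61 and 4.19 in WT, and Papss2, which makes the sulfate donor, 0.561 and 0.667 against 2.546 and 3.66.

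Low ratios were also found for genes that do not encode matrix proteins. Il17b, a cytokine gene of the IL-17 family, had 0 UMIs at day 13 and 1 UMI at day 19, against 2.18 and 3.58 per 10,000 in WT. At day 13 it was at least 460-fold lower, against a floor of 3 counts over the group, and at day 19 the log2 ratio was -11.1 with a counting interval from -16.4 to -8.61. C1qtnf3, which encodes the secreted protein CTRP3, measured 0.0317 and 0.0379 against 4.67 and 7.52 in WT, and was 199-fold lower at day 19. Ppa1, an inorganic pyrophosphatase gene, measured 0.941 and 1.14 against 15.6 and 18.4.

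Most measured genes of fibrous matrix were higher. Of 17 measured genes among 18 in the list, 14 were at least 2-fold higher at both ages and 0 lower, with median log2 ratios of 1.63 and 1.90. Col1a1 is among the higher ones, with barcode medians of 10.7 and 14.5 against 16.3 and 4.89 in neutrophil-gated mutant barcodes. Tnc, the gene of the matricellular protein tenascin-C, measured 0.960 and 1.201 per 10,000 against 0.105 and 0.105 in WT. Col5a1, a gene of the type V collagen that nucleates type I fibrils, measured 4.12 and 4.49 against 0.645 and 0.719. For both genes the mutant values were more than 5 times the WT values at each age. Among small leucine-rich proteoglycans, which bind collagen fibrils, 4 of 9 were higher and 1 lower, and Dcn (decorin) measured 35.8 and 32.2 against 10.8 and 7.996 in WT.

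The genes with the highest ratios over WT included Slurp1, Ptn, Igf1, Gas6 and Prrx2. Slurp1, which encodes a secreted Ly6-family protein, measured 1.77 and 2.23 per 10,000 against 0.00594 and 0.0193 in WT, 298-fold and 116-fold higher (log2 intervals 7.74 to 8.74 and 6.41 to 7.34). Ptn, which encodes the heparin-binding growth factor pleiotrophin, measured 4.56 and 3.58 against 0.260 and 0.286. Igf1, the gene of insulin-like growth factor 1, measured 1.16 and 0.999 against 0.0731 and 0.110. In each case both mutant ages were above both WT ages. Gas6, a ligand gene of the TAM receptor kinases, measured 3.40 and 3.23 against 0.367 and 0.412, and Pdgfra, a growth factor receptor gene of mesenchymal cells, 0.627 and 0.423 against 0.0569 and 0.0479. Prrx2, which encodes a homeodomain factor of mesenchyme, measured 0.901 and 0.764 against 0.0315 and 0.0850.

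Several chemokine genes and targets of NF-kappaB were higher. Of 8 measured chemokine and cytokine genes among 13 in the list, 5 were at least 2-fold higher, 1 (Il17b) lower and 2 neither, and of 11 measured NF-kappaB response genes among 12, 7 were higher and 0 lower. Genes such as Cxcl12 were measured only through the mutant sums, where they were high, so these counts are a description. Cxcl12, a chemokine gene of stromal cells, measured 0.307 and 0.197 per 10,000 against 0.0366 and 0.0193 in WT. Icam1, an adhesion gene, measured 0.789 and 1.35 against 0.147 and 0.123, and Nfkbiz, a nuclear regulator of NF-kappaB, 1.28 and 1.80 against 0.286 and 0.331. Of 17 immediate early genes, which respond to tissue digestion among other stimuli, 3 were higher and 0 lower. The part of digestion was not tested.

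Whether these differences went with genotype was tested without the Myoc and Pi15 step, in all barcodes that passed the rest of the gate (2795 and 2470 mutant barcodes at days 13 and 19, against 4402 and 993 WT). Their counts were summed per library and fitted over all genes with age as a covariate, by edgeR's quasi-likelihood test with Benjamini-Hochberg adjustment. The Myoc/Pi15 barcodes are 22.4% of these mutant barcodes, so the test bears on mutant chondrocytes as a group. Genes were chosen for naming mainly by their ratios in these same libraries. How many of the named genes passed is therefore no check on those ratios. In the mutant libraries, 1909 of 14960 genes rose (12.8%) and 1666 fell (11.1%) at an adjusted p under 0.05, and DESeq2 called 1115 and 1025 of 14089 genes. The p-values rest on how the genotype effect varied between the 2 ages and on a spread shared over genes, with 1 residual degree of freedom, not on a spread between mice.
The fits that left out 1 library also dropped the age term. Without a mutant library, the difference between the WT ages then counted as spread. Fewer calls in those fits therefore go with a changed model as well as with the missing library, and these cannot be told apart. Without the day 13 mutant library 53 genes rose and 11 fell, and without the day 19 one 54 rose and 16 fell, in fits that take the lone mutant library to vary as the WT pair does. Of 187 genes chosen for naming, 109 rose, 51 fell and 27 did not pass, and 18 passed in all 4 fits that leave out 1 library.

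**Figure D4:**
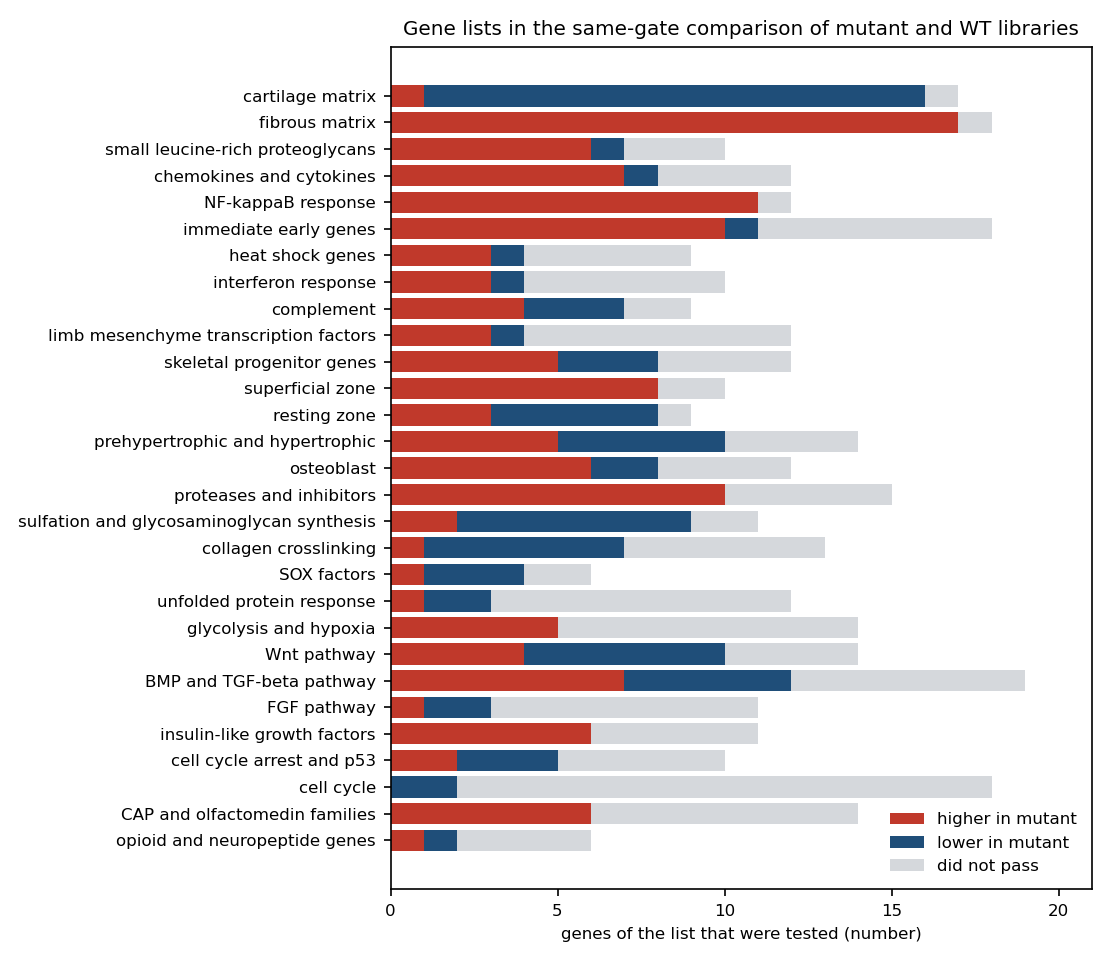
Number of genes (x axis) of each of 29 lists (y axis) that rose in the mutant libraries (red), fell (blue) or did not pass (grey) in the edgeR fit of mutant against WT barcodes under the same gate. The cartilage matrix list is mainly blue, with 15 of 17 lower, and the fibrous matrix list mainly red, with 17 of 18 higher.

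Sox9 itself measured 2.01 and 1.77 per 10,000 in gated mutant barcodes at days 13 and 19, against 3.58 and 4.49 in WT, and fell (log2 fold change -1.25 ± 0.14 SE, adjusted p = 0.000237, edgeR). It was still detected in the Myoc/Pi15 barcodes, at 2.25 and 1.79, close to the 1.95 and 1.76 of the remaining gated mutant barcodes. Sox8 and Sox5 fell too, by 1.41 and 0.66 on the log2 scale (adjusted p = 0.00041 and 0.00351, edgeR). Sox6 had a log2 fold change of 0.38 that did not pass (adjusted p = 0.0539, edgeR). Without 1 mutant library the adjusted p of Sox9 was 0.106 (day 13 left out) or 0.116 (day 19 left out), at log2 fold changes of -1.34 and -1.17.

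Of the cartilage matrix list, 15 of 17 tested genes fell and 1 rose, with a median log2 fold change of -1.33 beside 0.01 over all genes. Acan measured 10.8 and 12.7 per 10,000 in gated mutant barcodes against 44.2 and 45.2 in WT, and fell (log2 fold change -2.09 ± 0.18 SE, adjusted p = 3.86e-05, edgeR). Its highest adjusted p with 1 library left out was 0.0843, without the day 13 mutant library, and the call was also lost without the day 19 one. The gene that rose was Chad, named after its values were seen, which encodes the cell-binding matrix protein chondroadherin (log2 fold change 1.02). Comp had a log2 fold change of 0.45 that did not pass (adjusted p = 0.11, edgeR). Of the 11 sulfation genes, 7 fell and 2 rose.

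In the fibrous matrix list, 17 of 18 genes rose and 0 fell, with a median log2 fold change of 1.77. Tnc measured 0.945 and 0.871 per 10,000 in gated mutant barcodes against 0.0889 and 0.102 in WT (log2 fold change 3.101 ± 0.14 SE, adjusted p = 2.05e-06, edgeR). Tnc and Col5a1 (log2 fold change 2.93) were among the 18 genes that passed whichever library was left out, with a highest adjusted p of 0.0456 for both. Also among those 18 were Slurp1 (6.96), Prrx2 (4.36), Ggt5 (4.07), Igf1 (3.64), Ptn (3.13), Gas6 (2.17) and, lower, Il17b (-6.37), with the log2 fold change in brackets. Ggt5 encodes a gamma-glutamyltransferase that acts on leukotriene C4.

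NF-kappaB response genes rose in 11 of 12 cases and chemokine and cytokine genes in 7 of 12, with 0 and 1 that fell. Nfkbiz measured 1.09 and 1.35 per 10,000 in gated mutant barcodes against 0.263 and 0.304 in WT (log2 fold change 1.94 ± 0.13 SE, adjusted p = 8.75e-06, edgeR). Without the day 19 mutant library its adjusted p was 0.0518. Cxcl16, a membrane-bound chemokine gene, rose by 2.53 on the log2 scale and Csf1, the macrophage growth factor gene, by 2.17, and both lost the call when either mutant library was left out (highest adjusted p 0.0633 and 0.104, edgeR). Of 15 protease and inhibitor genes, 10 rose and 0 fell, among them Adamts4, an aggrecan-cleaving enzyme gene (log2 fold change 2.78), and Mmp3, the stromelysin gene (3.08). Neither was past the threshold without 1 of the mutant libraries (highest adjusted p 0.0615 and 0.232, edgeR).

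Growth factor lists gave different counts. Of 11 genes of the insulin-like growth factor list, 6 rose and 0 fell, and Igfbp5, which binds the growth factors, measured 2.62 and 2.03 per 10,000 in the Myoc/Pi15 barcodes against 0.470 and 0.602 in WT. Of the FGF list, 1 rose and 2 fell of 11, shares near those over all genes. The one that rose was the receptor gene Fgfr2 (log2 fold change 1.86), and Fgfr3, the receptor gene that restrains growth plate proliferation, fell by 1.31 on the log2 scale. Of the 18 cell cycle genes, 2 fell (11.1%, the same share as the 11.1% over all genes), 0 rose (12.8% over all genes) and 16 did not pass.

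Hypertrophic genes were lower in the Myoc/Pi15 barcodes than in the remaining gated mutant barcodes as a whole. Over the remaining gated mutant barcodes, 68 of 7748 genes were higher by 2-fold or more in both libraries (0.878%) and 129 were lower (1.66%), as a description. Col10a1 measured 0.165 and 0.0938 per 10,000 at days 13 and 19, against 5.36 and 5.45 in the remaining gated mutant barcodes, 32.5-fold and 58.1-fold lower. Ihh measured 0.0238 and 0.0148 against 0.769 and 0.960, and Panx3, a channel gene of hypertrophic cells and osteoblasts, 0.0681 and 0.0296 against 0.624 and 0.559. The low levels were shared by the barcodes just below the threshold: with a sum of 2 to under 4, Col10a1 was 0.239 and 0.182 and Panx3 0.101 and 0.0415. Counting any difference in sign, 49.2% of the 7748 genes were below the remaining gated mutant barcodes at both ages and 28.7% above. By that count all 14 genes of the prehypertrophic and hypertrophic list were below, and so were 10 of 10 measured osteoblast genes, a list that shares members with it, and 17 of 18 cell cycle genes. Fibrous matrix genes were divided in the same comparison, with 7 of 17 higher at both ages and 8 lower, and NF-kappaB response genes were higher in 8 of 11 and lower in 2.
In the genotype test the same list was divided, with 5 of 14 higher and 5 lower. Ihh measured 0.626 and 0.742 in all gated mutant barcodes against 0.675 and 0.626 in WT, and did not pass (log2 fold change -0.09 ± 0.14 SE, adjusted p = 0.674, edgeR). Col10a1 measured 4.36 and 4.21 against 7.48 and 4.42 in WT and fell by 0.59 on the log2 scale (adjusted p = 0.0474, edgeR), a call lost without either mutant library or without the day 13 WT library, where the adjusted p was 0.269.

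Fn1, the fibronectin gene, went with the hypertrophic genes. It measured 5.22 and 5.17 per 10,000 in the Myoc/Pi15 barcodes at days 13 and 19, against 18.9 and 22.3 in the remaining gated mutant barcodes and 8.84 and 9.81 in WT. Matn3 was lower as well, at 0.772 and 1.10 against 3.15 and 5.05 in the remaining gated mutant barcodes. R3hdml, a CAP-family gene like Pi15, measured 0.0143 and 0.0444 against 0.592 and 1.30. The 3 genes were below the remaining mutant barcodes at both ages.

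Genes higher than in the remaining gated mutant barcodes included several secreted and surface proteins. Lcn2, which encodes the iron-siderophore binding protein lipocalin-2, measured 1.15 and 3.06 per 10,000 at days 13 and 19 against 0.343 and 0.741 in the remaining gated mutant barcodes, 3.36-fold and 4.13-fold higher. Neutrophils also make Lcn2, which was 64.4 in neutrophil-gated barcodes at day 19. S100a9, another neutrophil gene, measured 0.518 and 3.06 against 1.80 and 6.68, and the part of neutrophil RNA in the Lcn2 level was not tested.
Ramp2, which encodes a partner of the adrenomedullin receptor and is abundant in endothelium, measured 1.35 and 0.828 against 0.436 and 0.240, with endothelial markers at 0.263 and 0.181 against 0.125 and 0.122. Crispld1, another CAP-family gene, measured 11.4 and 9.50 against 4.76 and 4.17, and Dlk1, a gene of a Notch-like surface protein of immature cells, 9.05 and 4.98 against 4.25 and 1.65. Each of these genes was higher in the Myoc/Pi15 barcodes at both ages. Acta2, the smooth muscle actin gene, measured 0.707 and 1.57 against 0.292 and 0.327, with mural cell markers at 0.244 and 0.181 against 0.0913 and 0.0519, and the part of mural or endothelial RNA in Ramp2 and Acta2 was not tested.

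Along the sum of Myoc and Pi15, several genes differed step by step and others did not. At day 13, Crispld1 was 3.82 per 10,000 in gated mutant barcodes with no Myoc or Pi15 UMI, 7.74 in those with 2 to under 4 and 13.5 in those with 16 or more, and at day 19 it was 3.35, 8.18 and 9.96, with 9.83 and 8.50 in the bins between the last pair. Penk in the same 3 bins was 1.35, 3.37 and 6.82 at day 13, and 1.198, 3.53 and 11.2 at day 19. Fn1 was lower in higher bins, at 22.01, 6.47 and 4.26 at day 13, and 25.97, 7.58 and 4.47 at day 19. Gas1 was highest in the bin of 4 to under 8, at 2.55 and 2.24, and Acta2 at day 13 had no steady order, with 0.762 at 2 to under 4, 0.173 at 8 to under 16 and 1.43 at 16 or more. Col10a1 changed between the bins below the threshold of the rule: at day 13 it was 4.36 in barcodes with no UMI, 10.02 in those with a sum above 0 and under 2, and 0.239 in those with 2 to under 4. Bins of low sums depend on depth, since 1 UMI in a shallow barcode is already above 4 per 10,000.

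**Figure D5:**
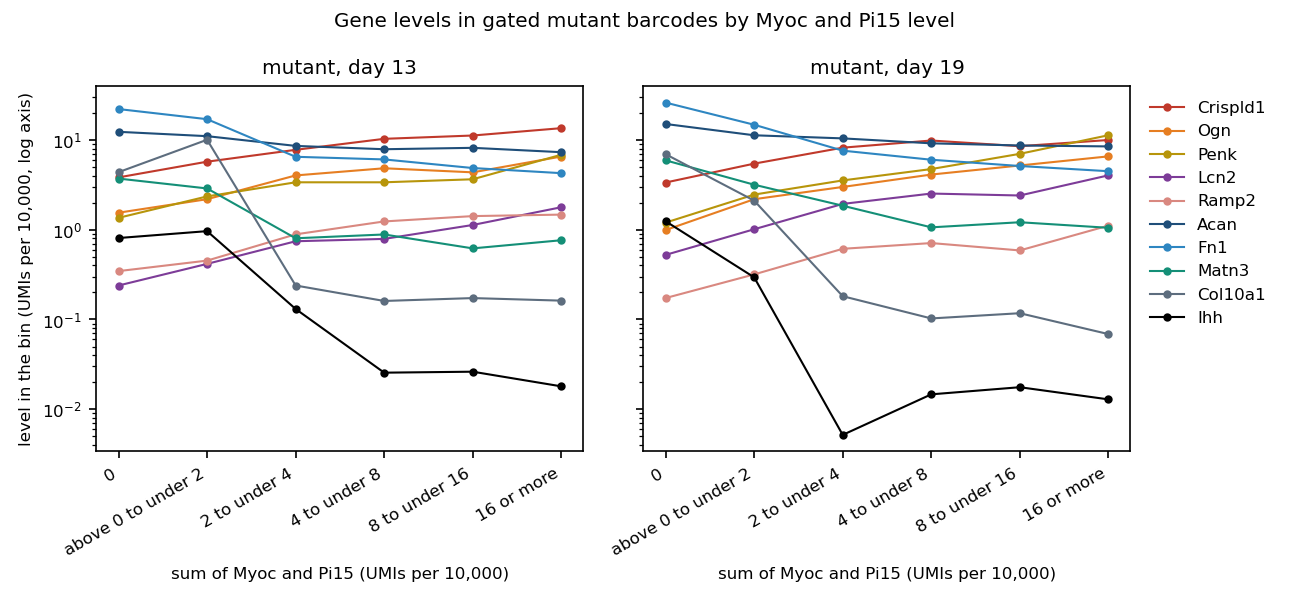
Level of 10 genes (y axis, UMIs per 10,000, log axis) in gated mutant barcodes of 6 bins of the sum of Myoc and Pi15 (x axis, UMIs per 10,000 of the barcode), at day 13 on the left and day 19 on the right. Each point is the summed level in 1 bin of 1 library. Crispld1 climbs to 13.5 and Fn1 drops to 4.26 in the highest bin at day 13, while Col10a1 is under 0.3 in every bin from 2 upward in both libraries.

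The Mmp13/Cryba2 barcodes had at least 15 of Mmp13 and Cryba2 summed under an otherwise equal gate (260 and 111 barcodes). Against these Mmp13/Cryba2 barcodes, 274 genes were higher by 2-fold or more (3.54%) and 258 lower (3.33%) in the Myoc/Pi15 barcodes. Those counts were larger than against the remaining gated barcodes, which were more numerous (2229 and 1859). The part of counting error in the smaller sums was not tested. Spp1, the osteopontin gene, measured 4.07 and 2.63 per 10,000 at days 13 and 19 in the Myoc/Pi15 barcodes against 53.3 and 47.7 in the Mmp13/Cryba2 ones. Col13a1, a transmembrane collagen gene, measured 0.0808 and 0.0609 against 1.38 and 1.32. Lsamp, a neural adhesion gene, measured 0.540 and 0.510 against 0.0696 and 0.0886, and Gas1, which encodes a membrane protein of Hedgehog reception, 2.21 and 1.88 against 0.234 and 0.281. Penk was 12.6-fold and 28.0-fold higher in the Myoc/Pi15 barcodes.
Against mutant Prg4 barcodes (246 and 227), with at least 10 of Prg4, 167 genes were 2-fold higher (2.16%) and 99 lower (1.28%), and those barcodes held 1.87 and 2.92 of Myoc. Against Col3a1-high, Col2a1-low barcodes (730 and 455), a gate for fibroblasts, 320 were higher (4.13%) and 363 lower (4.69%).

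Between the ages, the Myoc/Pi15 barcodes differed in fewer genes than WT chondrocytes did, as a count with no test. At day 19, 89 of 7748 genes were higher than at day 13 by 2-fold or more (1.15%) and 41 were lower (0.529%), against 176 (2.27%) and 68 (0.878%) in WT barcodes with Col2a1 at 100 or more. The WT set was wider, with no limit on Ptprc, Prg4 or the other rule genes. It made up 74.1% of kept WT barcodes at day 13 and 15.8% at day 19. The Myoc/Pi15 barcodes were 7.62% and 6.15% of kept mutant barcodes. The part of the unlike sets in these counts was not tested. Mt1 and Mt2, the metallothionein genes that bind zinc and copper, were higher at day 19. Mt1 measured 6.38 at day 13 and 15.96 at day 19 in the Myoc/Pi15 barcodes, and 2.94 and 5.94 in WT. Mt2 measured 1.92 and 5.63, and 0.496 and 0.943 in WT. Serpina3n, an acute phase protease inhibitor gene, measured 0.520 and 1.28 in the Myoc/Pi15 barcodes, and 0.383 and 0.501 in WT.
S100a8 and S100a9 were also higher at day 19, at 1.88 and 3.06 against 0.322 and 0.518 at day 13, beside neutrophil markers whose sum was higher in WT barcodes too (14.5 at day 19, 3.42 at day 13). Msmp, which encodes a small secreted protein, was lower at day 19, at 0.153 against 1.71 at day 13, and in WT at 0.117 against 1.29. Dlk1 was lower at day 19 by less than 2-fold, at 4.98 against 9.05, and in WT at 1.45 against 5.41. With 1 library per age, age and library cannot be told apart.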

How the data were processed

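The deposited files hold raw UMI counts per gene and barcode, made by the authors with Cell Ranger 3.1.0, per the file headers, on mm10, per the submitters' processing notes, which also name Seurat 3 with no role. Barcodes, 31053 features and counts were used as deposited. The members and gene lists were chosen with earlier results of these data known.

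Counts were summed over the barcodes of a set in each library and divided by all UMIs of the set, times 10000. Ratios between selected sets are descriptions, with Poisson intervals at 95% and a floor of 3 counts for a sum with no UMI, which cover counting error only. The genotype test (edgeR 4.0.16, R 4.3.3, TMM, filterByExpr, quasi-likelihood, age and genotype as terms, Benjamini-Hochberg) took mutant and WT sums under the gate without Myoc and Pi15. On simulated data for that comparison 98% of simulated 2-fold and 100% of 4-fold differences passed at a dispersion of 0.01, with 12 false calls among 14723 genes, and 31% of 2-fold ones passed at 0.05. DESeq2 1.42.0 was an alternative. Doublets were scored with Scrublet in scanpy 1.11.5. A sum of Myoc and Pi15, a gene minimum, a mitochondrial limit, a Col2a1 and a UMI threshold, scaling, filters and left-out libraries were varied, and the removal of the 5% highest doublet scores was added after the data were seen.

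Genes named in the text are the rule and marker genes, the SOX genes and Acan, the 15 highest and 15 lowest over WT at 0.5 UMIs per 10,000 or more, up to 5 of each of 29 lists, 8 each way between ages and 10 each way over the remaining gated and the Mmp13/Cryba2 barcodes, leaving out mitochondrial, ribosomal, haemoglobin, sex-linked and unnamed genes. Exceptions are said to be so. Promoter sequences are from RefSeq (GRCm38.p6), and gene positions from GENCODE M21 on mm10.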

Additional observations from a re-analysis of the deposited data

Results flagged for a closer look

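For 5 genes the Myoc/Pi15 barcodes differed from WT barcodes with Col2a1 at 100 or more in opposite directions at the 2 ages. The difference between the ages was not tested, since each age has 1 library per genotype. Frzb, which encodes a secreted Wnt antagonist of cartilage, had a log2 ratio over WT of -0.50 at day 13 and 0.49 at day 19. Spp1, the osteopontin gene, had 0.63 and -0.97. Camp, a cathelicidin gene of neutrophils, had 0.66 and -0.78, beside neutrophil markers that summed to 1.23 and 6.50 per 10,000 in the Myoc/Pi15 barcodes, against 3.42 and 14.5 in WT, and the part of neutrophil RNA was not tested. Pdia4, an endoplasmic reticulum chaperone gene, had 0.16 and -0.65, and Pthlh, the gene of parathyroid hormone-related protein, 0.44 and -0.60. With 1 library per group, no library could be tested as standing apart from its group.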

How the results depend on the processing

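The Myoc/Pi15 barcodes were 7.62% and 6.15% of kept mutant barcodes at days 13 and 19. The shares were 8.61% and 8.46% with a minimum of 1000 genes, 5.72% and 4.21% with Col2a1 at 100 or more, 9.31% and 10.2% with 5000 or more UMIs, 11.1% and 7.92% with Myoc and Pi15 at 2 or more and 4.29% and 4.003% at 8 or more (717 barcodes in all), and 5.45% at day 19 with a minimum of 200 genes. Genes higher and lower than WT numbered 201 and 150 when measured at 0.5 per 10,000, and 245 and 142 at 3-fold. In the genotype test 1219 genes rose and 1062 fell with genotype alone, and 1115 and 1025 in DESeq2. With 1 library left out, between 53 and 1847 rose and between 11 and 1870 fell (54 and 16 without the day 19 mutant library). With WT barcodes under the same gate, the mean log2 ratio was 1.59 for Prg4, a gene of the rule, and 0.078 for S100a9, both turned round. Mt1 turned round in the genotype test without the day 19 mutant library (-0.10) and without the day 13 WT library (-0.014). The cause of these changes was not tested. The counts that follow take each named gene once for each setting, so they are not numbers of genes. Of the ratios over WT, 2349 kept their direction and size, 262 moved and 2 turned round. The 2349 include 201 under the measured level of 0.5, a setting that cannot change a ratio. In the genotype test 2409 kept direction and side of the threshold, 364 lost the call, 30 gained it and 2 turned round. The labels give no replicate numbers, and the age term of the genotype test sets mutant against WT within each age. That term was dropped in the fits with 1 library left out. Levels near 3 counts are set by depth.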
